A study of Homo sapiens with 6 samples.

Results

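Of the 402 genes in the table analysed here, 85 (21.1%) are long noncoding RNA (lncRNA) genes, and these 85 are described below. They are the rows whose transcript type includes lncRNA and has no protein-coding entry. Of the 85, 35 carry a gene symbol and 50 only an Ensembl gene ID. RNA was sequenced from CAL-27, a long-established line of tumour cells from an oral squamous carcinoma, in 2 groups of 3 libraries. The group NC is the comparison group, an abbreviation the labels do not spell out, and in the group shYTHDC2 the gene YTHDC2 was knocked down; the sources used here do not give the hairpin, the vector or the number of clones. Both groups are the same line, and the labels name no further treatment. Levels are in FPKM, fragment numbers divided by transcript length and library size, and the depth of the libraries is not given.

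The authors' deposited table marks every one of its genes as significant and higher in shYTHDC2, 85 of the 85 lncRNA genes as of all listed genes (100%). That selection fixed the direction of every change below, and the p-values describe genes already chosen for a difference. The titles call the libraries biological replicates but do not say whether these were separate cultures, so the p-values cover the spread between these libraries. LncRNA genes that were lower or did not differ were not analysed here, nor was YTHDC2 itself, so the extent of the knockdown was not checked. None of 9 squamous epithelium markers looked for (keratins and desmosomal cadherins among them) was in the table, so the cell type was not checked either. In bulk libraries fewer cells with an RNA and less RNA per cell cannot be told apart.

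A lncRNA is a transcript with no known protein product. Many are spliced and polyadenylated like messenger RNAs, some are transcribed antisense to a protein-coding gene or from close to its promoter, and some serve as host genes from which microRNAs are cut. YTHDC2 is an RNA helicase with a YTH domain, which binds N6-methyladenosine (m6A), a methyl mark of messenger RNAs and lncRNAs that often stands in the letters GGACT. In mouse germ cells YTHDC2 works together with MEIOC in the entry into meiosis.

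All 85 lncRNA genes had a higher mean in shYTHDC2 by selection, and most passed a test of the 3 shYTHDC2 libraries against the 3 NC libraries. In limma on log2(FPKM + 1), a scale that understates the change of low genes, 64 of 85 passed a Benjamini-Hochberg adjusted p of 0.05, which is 75.3%. Over all 402 listed genes 85.1% passed, and over the 283 protein-coding genes 90.8%. No listed gene was lower in limma (0%), and 0 were lower at an unadjusted p under 0.05, as the selection of the table sets. The count of 64 was 42 without NC replicate 1, 41 without NC replicate 2 and 43 without NC replicate 3, and 39 of the 64 passed with each of the 6 libraries left out in turn. For genes at 0 in all NC libraries, leaving out an NC library takes away a 0 and leaves fewer libraries. A call lost that way, here and below, does not rest on the value of a particular NC library. The NC group of such genes has no spread, which lowers the pooled variance behind their calls. The lowest shYTHDC2 library exceeded the highest NC library for 68 of the 85, which is 80.0%, against 90.5% of all listed genes and 96.1% of the protein-coding genes. Of the other 17, 16 had a shYTHDC2 library listed at 0, and the last was ENSG00000293183. Groups that do not overlap are thus the rule among the listed genes. Where this is stated for a gene below, it does not set that gene apart.

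These RNAs were low in both groups. The median over the 85 genes of the mean level was 0.00892 FPKM in NC and 0.288 FPKM in shYTHDC2. A mean of 1 FPKM was reached by 15 genes in shYTHDC2 and by 5 in NC. Of the 15, 14 passed the test (93.3%), against 100% of the 165 protein-coding genes at that level and 85.1% of all listed genes. Most of the 15 reached that level only in shYTHDC2, the group chosen as higher. Such a filter itself favours genes that pass, so these shares are a description only. In NC, 40 of the 85 (47.1%) were listed at 0 in all libraries. A value above 0 was listed for 40, 34 and 39 of the genes in NC replicates 1, 2 and 3, and for 78, 78 and 80 in the shYTHDC2 replicates. The summed level of the 85 genes was 21.9, 18.6 and 17.6 FPKM in NC and 58.7, 66.3 and 61.9 FPKM in shYTHDC2. In shYTHDC2 the 15 genes that reached 1 FPKM made up 41.6 of the mean sum of 62.3 FPKM. The sum therefore says little about the other genes.

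**Figure D1:**
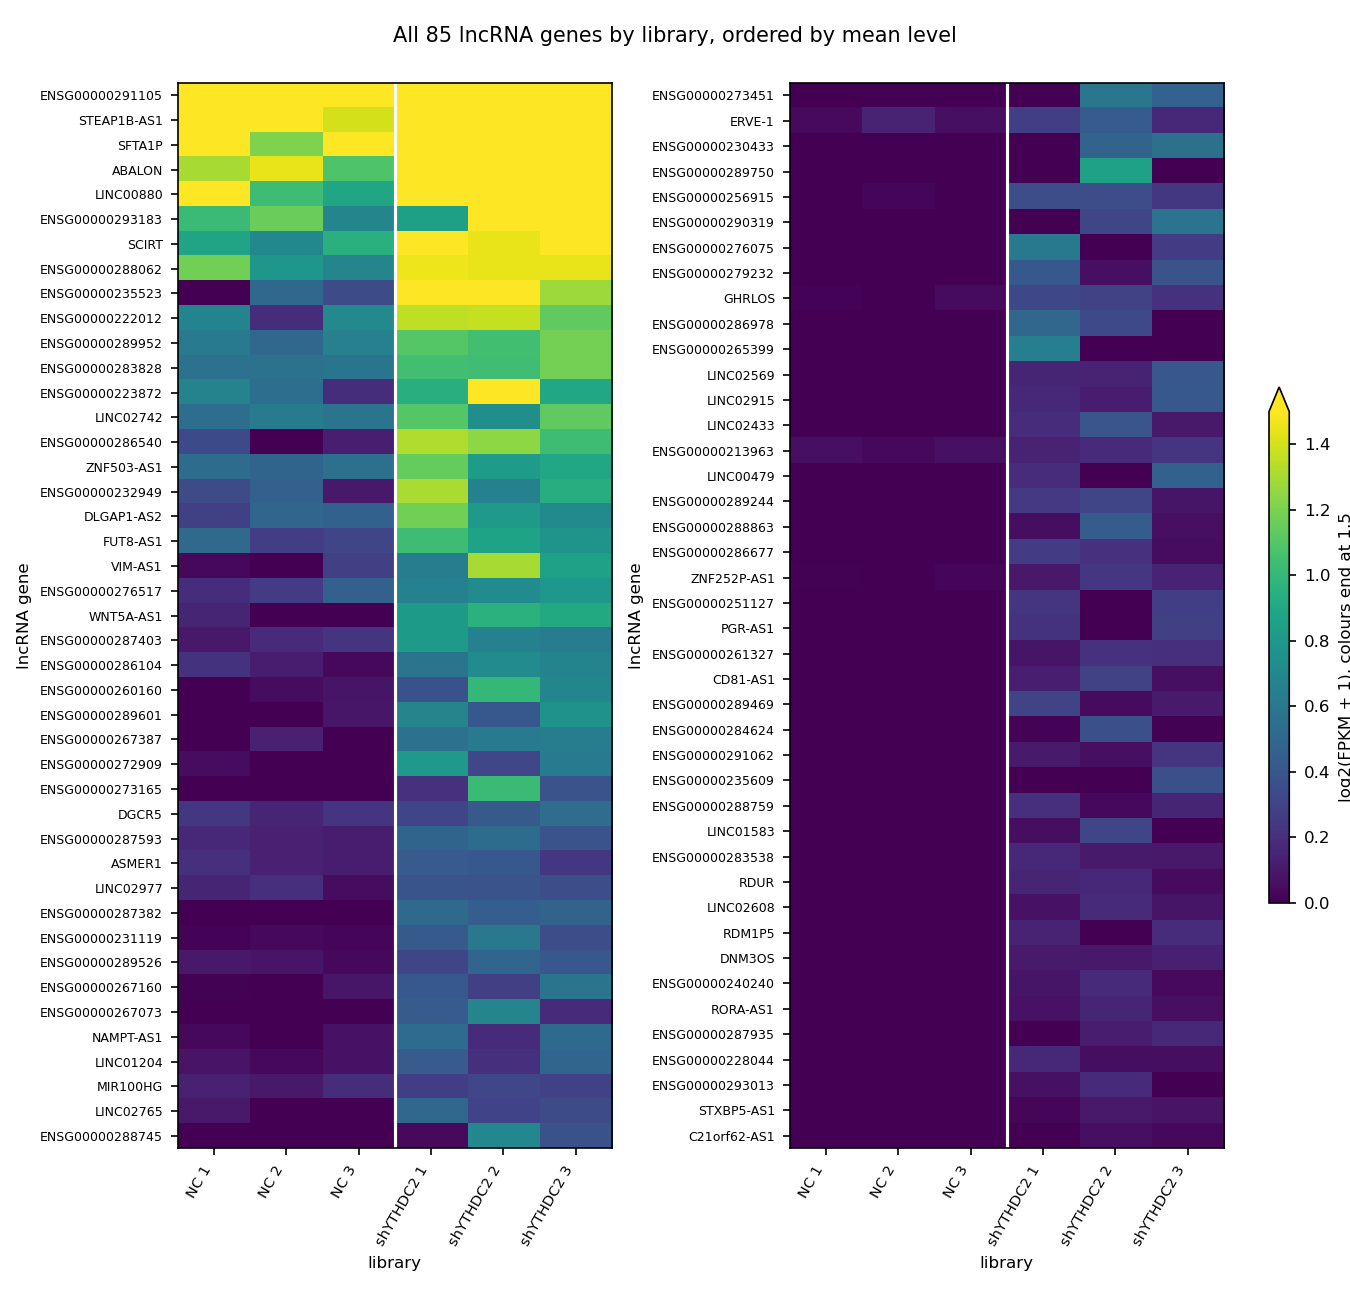
Each row is 1 of the 85 lncRNA genes, ordered by mean level, and each column a library; the colour is log2(FPKM + 1), and a white line parts NC from shYTHDC2. Genes at the abundant end have signal in both groups, while the 40 genes listed at 0 in all NC libraries have colour in shYTHDC2 columns alone, and for 16 of them not in all 3.

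The lncRNA gene with the second highest level, and the highest with a symbol, was STEAP1B-AS1. It is antisense to STEAP1B, a gene of the STEAP family of metalloreductases, and lies at chr7:22563337-22573996 on the plus strand, within the span of STEAP1B on the minus strand (GRCh38, GENCODE release 29, as for all gene positions below). Its longest annotated transcript has 2432 nucleotides in 4 exons and holds GGACT at 4 places. The stretch around the first, nucleotides 266 to 390, is printed because GGACT is the core of the motif in which m6A is found; the motif is in capitals, and methylation was not measured.
STEAP1B-AS1: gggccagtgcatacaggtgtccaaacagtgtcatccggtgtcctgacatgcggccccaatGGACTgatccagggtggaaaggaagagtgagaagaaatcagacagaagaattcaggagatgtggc

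STEAP1B-AS1 was at 2.85, 2.74 and 1.65 FPKM in NC replicates 1, 2 and 3 and at 7.64, 6.71 and 7.57 FPKM in the shYTHDC2 replicates. The groups lay far apart, and the shYTHDC2 libraries were close together. The mean rose 3.03-fold, from 2.41 ± 0.664 to 7.30 ± 0.519 FPKM (SD, n = 3 in each group here and below), a log2 change of 1.30 (SE 0.15, limma adjusted p = 0.000151).

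The most abundant lncRNA gene was ENSG00000291105, to which the table gives no symbol. It was at 4.47, 4.02 and 4.09 FPKM in NC and at 7.41, 11.9 and 8.22 FPKM in shYTHDC2, where replicate 2 was above the other two. It rose 2.18-fold, from 4.19 ± 0.245 to 9.17 ± 2.37 FPKM (log2 change 0.94, SE 0.15, limma adjusted p = 0.000961). No other lncRNA gene had a shYTHDC2 mean as high as these 2 genes.

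SFTA1P is a transcribed pseudogene named for surfactant associated protein. It was at 2.07, 1.31 and 2.11 FPKM in NC and at 3.62, 3.36 and 4.02 FPKM in shYTHDC2, and it rose 2.01-fold (log2 change 0.73, SE 0.13, limma adjusted p = 0.00148). NC replicate 2 was the low library here, while the shYTHDC2 libraries were even. LINC00880, an intergenic RNA on chromosome 3, was at 2.04, 1.04 and 0.845 FPKM in NC and at 2.60, 2.86 and 2.81 FPKM in shYTHDC2. It rose 2.10-fold (log2 change 0.74, SE 0.18, limma adjusted p = 0.00646), and NC replicate 1 came closest to the shYTHDC2 libraries. SCIRT, whose name stands for stem cell inhibitory RNA transcript, was at 0.836, 0.624 and 0.939 FPKM in NC and at 2.18, 1.73 and 1.85 FPKM in shYTHDC2. It rose 2.40-fold (log2 change 0.70, SE 0.10, limma adjusted p = 0.000600), with a small spread in both groups.

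ABALON runs antisense to BCL2L1, the gene of the apoptosis regulator BCL-X. It was at 1.47, 1.74 and 1.12 FPKM in NC and at 2.42, 2.20 and 4.42 FPKM in shYTHDC2, where replicate 3 stood above the other two. It rose 2.09-fold (log2 change 0.68, SE 0.20, limma adjusted p = 0.0160), but without NC replicate 3 the adjusted p was 0.0648. BCL2L1 is not in the table.

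ENSG00000288062 was at 1.26, 0.736 and 0.606 FPKM in NC and at 1.75, 1.74 and 1.74 FPKM in shYTHDC2. The 3 shYTHDC2 values were nearly equal, and the gene rose 2.00-fold (log2 change 0.57, SE 0.13, limma adjusted p = 0.00554). ENSG00000222012, antisense to the phosphatase-family gene PTPRN2, was at 0.602, 0.144 and 0.631 FPKM in NC and at 1.56, 1.59 and 1.19 FPKM in shYTHDC2. It rose 3.15-fold (log2 change 0.76, SE 0.15, limma adjusted p = 0.00297). A second lncRNA gene of that region, ENSG00000223872, lies 110446 bases away on the same strand; it was chosen after its values were seen, and rose 3.01-fold from 0.399 to 1.20 FPKM (limma adjusted p = 0.0159; 0.0621 without NC replicate 3).

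ENSG00000293183 was the only one of the 10 most abundant genes that did not pass. It was at 1.03, 1.24 and 0.608 FPKM in NC and at 0.803, 3.60 and 3.30 FPKM in shYTHDC2, so that shYTHDC2 replicate 1 lay among the NC libraries. The limma adjusted p was 0.0911 with all libraries and 0.00135 without shYTHDC2 replicate 1.

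**Figure D2:**
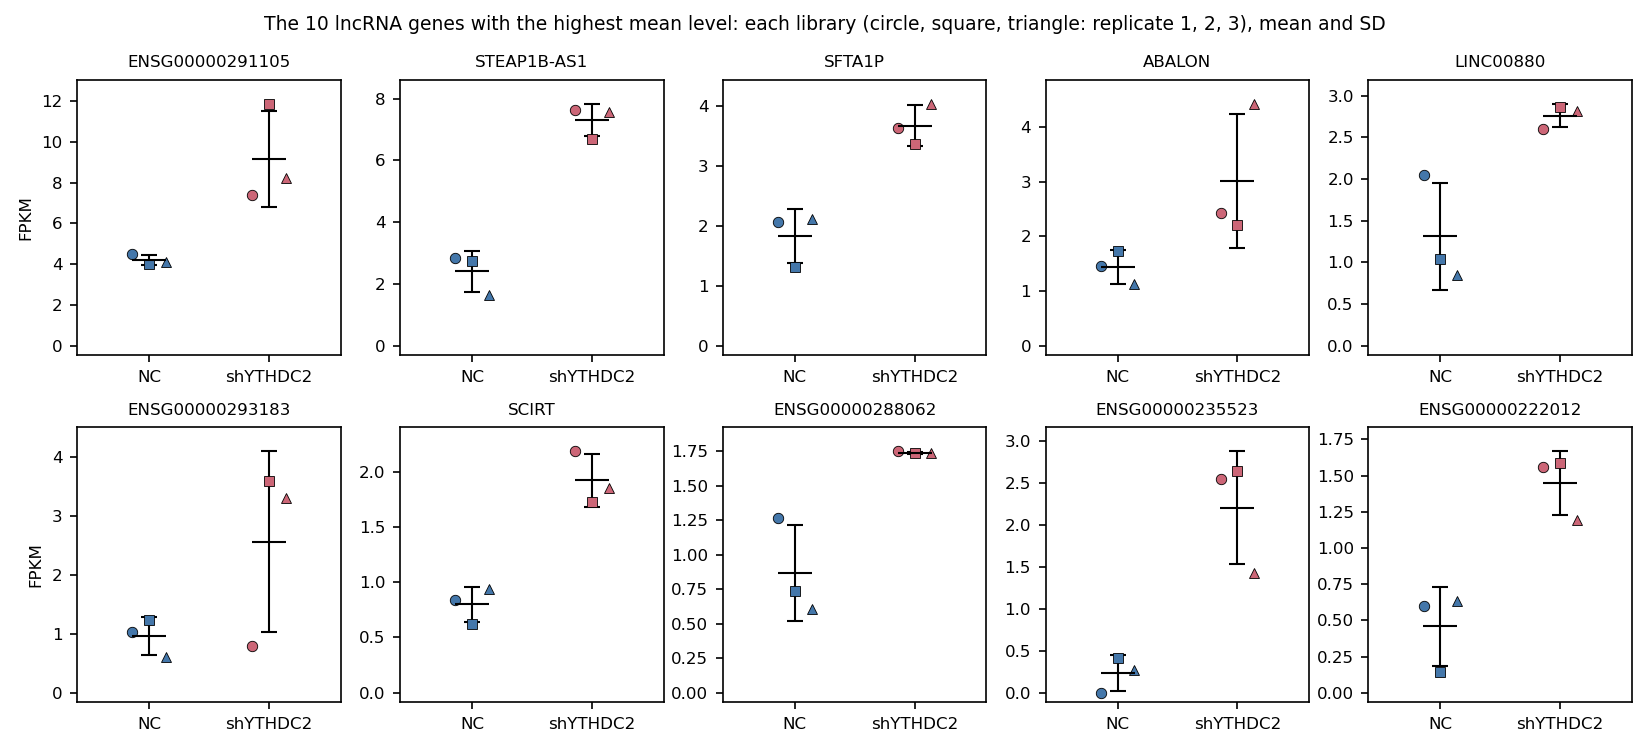
FPKM of the 10 lncRNA genes with the highest mean level; each point is a library, and the long dash and bars are the group mean and SD (n = 3). All shYTHDC2 points lie above all NC points in every panel but that of ENSG00000293183, where shYTHDC2 replicate 1 is at 0.803 FPKM.

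The largest log2 change of the 85 was that of ENSG00000235523, at chr9:72257336-72257783. It was at 0, 0.418 and 0.276 FPKM in NC and at 2.54, 2.63 and 1.43 FPKM in shYTHDC2, with the lowest shYTHDC2 library far above the highest NC library. The log2 change was 1.37 (SE 0.19, limma adjusted p = 0.000477), a 9.52-fold rise of the mean, or 15.97-fold without NC replicate 2. The guanine deaminase gene GDA lies within 5 kb of it and is not in the table. ENSG00000286540 followed STEAP1B-AS1 as the third largest. It was at 0.262, 0 and 0.0931 FPKM in NC and at 1.4995, 1.37 and 1.04 FPKM in shYTHDC2, and rose 11.01-fold, or 28.0-fold without NC replicate 1 (log2 change 1.04, SE 0.12, limma adjusted p = 0.000155).

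Antisense RNAs made up the largest group with a known partner. For 30 of the 85 genes the symbol or description names a gene on the other strand, and for 4 more a gene in whose intron they lie. Of the 30 antisense RNAs 25 passed in limma (83.3%), a share near the 85.1% of all listed genes. Of the 4 sense intronic RNAs 3 passed. On log2(FPKM + 1), which understates low genes, the median change of the antisense RNAs was 0.44, against 0.53 over all listed genes. Among genes with NC signal the median fold was 5.02 for the antisense RNAs, against 2.57 over all listed genes. The partner itself was in the table for 4 of the 30 antisense RNAs and for 0 of the 4 sense intronic ones. These 4 face 3 genes, STEAP1B, VIM and WNT5A. The library kit marks strand, but the strand setting of the counting is not given, so reads of an antisense RNA and of its partner cannot be told apart with certainty, and the levels of both are uncertain where they overlap.

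WNT5A encodes a secreted ligand of the Wnt family. WNT5A-AS1 lies inside it, at chr3:55487699-55488308 on the plus strand, while WNT5A spans chr3:55465715-55490539 on the minus strand. WNT5A-AS1 was at 0.112, 0 and 0 FPKM in NC and at 0.760, 0.945 and 0.880 FPKM in shYTHDC2. Its partner WNT5A was at 0.255, 0.197 and 0.216 FPKM in NC and at 1.00, 0.951 and 1.26 FPKM in shYTHDC2. Neither gene had overlapping groups, as held for 90.5% of all listed genes. Per length the 2 RNAs were at like levels in shYTHDC2, 0.862 ± 0.0939 and 1.07 ± 0.168 FPKM. WNT5A-AS1 rose 23.1-fold (log2 change 0.84, SE 0.08, limma adjusted p = 4.19e-05) and WNT5A 4.81-fold (log2 change 0.76, SE 0.09, limma adjusted p = 0.000155). The fold of WNT5A-AS1 rests on NC replicate 1, without which NC is at 0, and was 15.4-fold without either of the other NC libraries. The RefSeq promoter window of WNT5A-AS1, 250 bases before and 50 after its start, shares 189 bases with that of a WNT5A start on the other strand.

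VIM encodes vimentin, the intermediate filament protein of mesenchymal cells. VIM-AS1 spans chr10:17214239-17229985 on the minus strand and overlaps the start of VIM, which lies at chr10:17228259-17237593 on the plus strand. VIM-AS1 was at 0.0216, 0 and 0.218 FPKM in NC and at 0.552, 1.47 and 0.814 FPKM in shYTHDC2. VIM was at 0.289, 0.117 and 0.152 FPKM in NC and at 1.05, 1.14 and 0.565 FPKM in shYTHDC2. Replicate 2 was the highest shYTHDC2 library for both. The groups of neither gene overlapped, as held for 90.5% of all listed genes. VIM-AS1 rose 11.8-fold (log2 change 0.83, SE 0.17, limma adjusted p = 0.00321) and VIM 4.93-fold (log2 change 0.68, SE 0.13, limma adjusted p = 0.00223). The fold of VIM-AS1 was 87.5 without NC replicate 3, with a limma adjusted p of 0.00786. Per length, VIM in these libraries was no higher than its antisense RNA, at 0.918 ± 0.309 against 0.945 ± 0.474 FPKM in shYTHDC2.

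STEAP1B had a second antisense RNA in the table, ENSG00000232949, 15709 bases from STEAP1B-AS1 on the same strand. It was at 0.268, 0.376 and 0.0756 FPKM in NC and at 1.48, 0.577 and 0.913 FPKM in shYTHDC2, apart but with a wide spread. It rose 4.13-fold (log2 change 0.66, SE 0.17, limma adjusted p = 0.00915). STEAP1B, listed in the table only with transcripts whose coding sequence is not defined, was at 0.155, 0.0487 and 0.0124 FPKM in NC and at 0.293, 0.371 and 0.255 FPKM in shYTHDC2. It rose 4.25-fold, or 10.03-fold without NC replicate 1 (log2 change 0.29, SE 0.07, limma adjusted p = 0.00674), and its shYTHDC2 level of 0.306 FPKM was far under the 7.30 FPKM of STEAP1B-AS1, both per length. The cytokine gene IL6, also in the table, lies 134262 bases from ENSG00000232949.

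**Figure D3:**
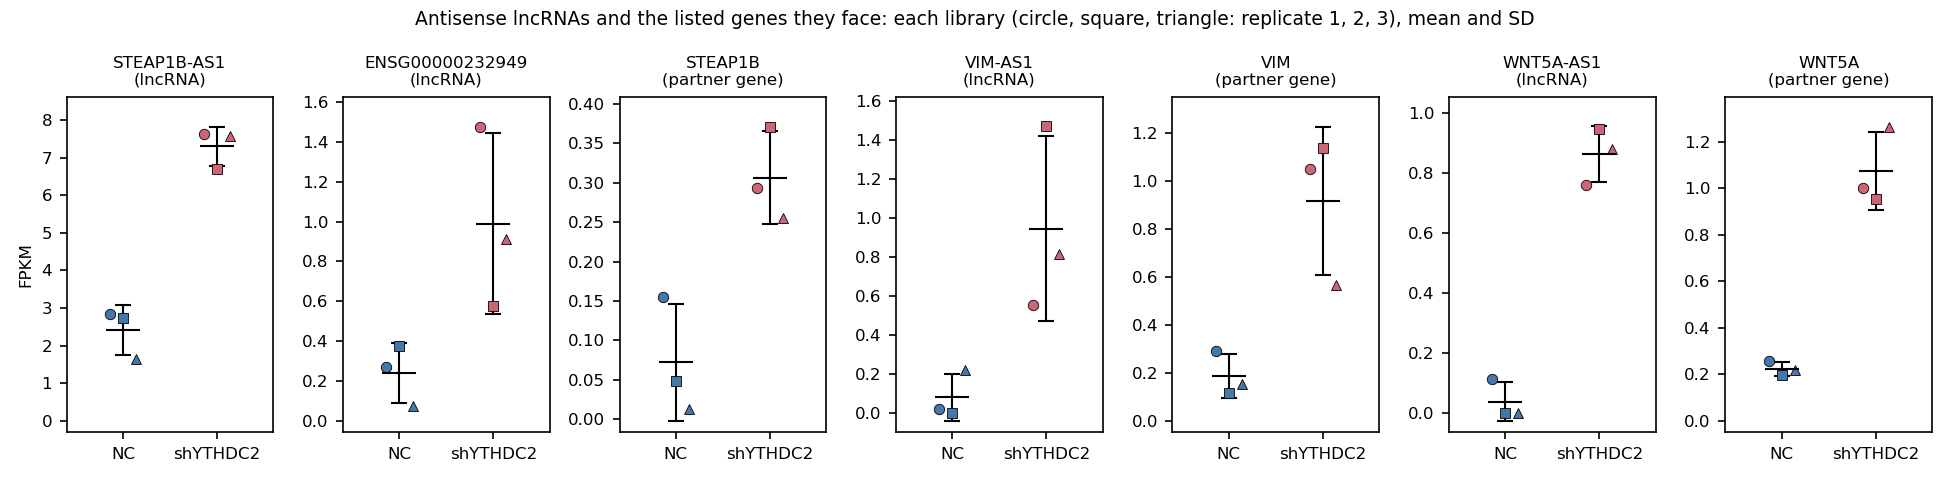
FPKM of 4 antisense lncRNA genes and the 3 listed genes they face; each point is a library, the long dash and bars are the group mean and SD (n = 3), and each panel has its own axis. The shYTHDC2 points lie above the NC points in every panel, and STEAP1B-AS1 reaches 7.64 FPKM where STEAP1B stays at or under 0.371 FPKM.

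Promoter windows from RefSeq (GRCh38.p14) were matched by symbol for 19 of the 85 genes. Those of STEAP1B-AS1, at chr7:22563087-22563386 on the plus strand, and of the inner start of VIM-AS1, at chr10:17226849-17227148 on the minus strand, are printed as examples of antisense RNAs that were higher together with a listed partner. The windows of WNT5A-AS1 and of the outer start of VIM-AS1, at chr10:17229936-17230235, are not printed because they overlap annotated untranslated regions; each holds a GC box and no AP-1 motif. The motifs searched on both strands were TGANTCA, the site of AP-1 factors, the GC box GGGCGG and the TATA box TATAAA, none of which contains another; matches are in capitals.
STEAP1B-AS1: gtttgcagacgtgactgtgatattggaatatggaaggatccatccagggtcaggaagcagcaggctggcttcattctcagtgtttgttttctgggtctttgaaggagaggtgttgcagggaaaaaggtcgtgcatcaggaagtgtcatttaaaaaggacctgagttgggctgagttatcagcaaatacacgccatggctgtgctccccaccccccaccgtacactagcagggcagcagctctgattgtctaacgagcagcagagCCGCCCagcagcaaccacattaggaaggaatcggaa
VIM-AS1: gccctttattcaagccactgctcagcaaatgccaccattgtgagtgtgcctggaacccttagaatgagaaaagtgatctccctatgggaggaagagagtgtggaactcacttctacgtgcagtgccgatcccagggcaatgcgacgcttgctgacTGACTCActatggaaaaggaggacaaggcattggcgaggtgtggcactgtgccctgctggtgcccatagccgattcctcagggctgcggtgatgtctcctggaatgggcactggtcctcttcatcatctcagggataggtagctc

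The STEAP1B-AS1 window holds a GC box on the other strand, and this VIM-AS1 window holds an AP-1 motif. Over the 27 windows of the 19 lncRNA genes, TGANTCA was found in 3 (11.1%), those of DLGAP1-AS2, LINC02608 and VIM-AS1, against 7.71% of the windows of all genes. GGGCGG was found in 7 (25.9%), against 45.0% of all windows and 59.7% of those of the listed protein-coding genes. TATAAA was found in 2 (7.41%), against 11.5% of all windows. These are counts of letters in short windows, the shares were not tested, and a match is not a bound site.

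The other antisense RNAs face genes that are not in the table. Those named in this paragraph and the next were chosen after their values were seen. ENSG00000267160 is antisense to MEIOC, the partner of YTHDC2 in mouse germ cells. It also overlaps the protein-coding gene CCDC43 on its own strand, and whether its reads come from CCDC43 was not tested. ENSG00000267160 was at 0.00469, 0 and 0.0644 FPKM in NC and at 0.329, 0.219 and 0.494 FPKM in shYTHDC2. The groups were apart, and it rose by 0.39 on the log2 scale (SE 0.08, limma adjusted p = 0.00323). ENSG00000267387 faces SHFL, an interferon-induced inhibitor of virus replication. It was at 0, 0.0993 and 0 FPKM in NC and at 0.476, 0.543 and 0.555 FPKM in shYTHDC2, which were close together, and rose by 0.56 (SE 0.06, limma adjusted p = 0.000151). ENSG00000289601 faces the cadherin gene CDH6. It was at 0, 0 and 0.0643 FPKM in NC and at 0.602, 0.333 and 0.700 FPKM in shYTHDC2, and rose by 0.59 (SE 0.10, limma adjusted p = 0.00102).

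Other antisense RNAs had signal in every NC library. ENSG00000289952, antisense to the renalase gene RNLS, rose 2.28-fold, from 0.510 ± 0.0825 to 1.16 ± 0.110 FPKM (limma adjusted p = 0.00124). ENSG00000283828, antisense to the coagulation factor gene F10, rose 2.32-fold, from 0.488 ± 0.0102 to 1.13 ± 0.125 FPKM (limma adjusted p = 0.000953). FUT8-AS1, facing the fucosyltransferase gene FUT8, rose 2.94-fold, from 0.294 ± 0.121 to 0.864 ± 0.169 FPKM (limma adjusted p = 0.00256). None of these 3 had overlapping groups, as held for 90.5% of all listed genes. ZMYND8, a reader of histone marks, had an RNA on each strand. The antisense RNA ENSG00000231119 rose 24.5-fold, from 0.0155 to 0.380 FPKM (limma adjusted p = 0.00104), and the sense intronic RNA ENSG00000273451, 3419 bases from it, is described below among the RNAs listed at 0 in NC. The 5 antisense RNAs that did not pass were C21orf62-AS1, PGR-AS1, STXBP5-AS1, ENSG00000265399 and ENSG00000276075, all at 0 in every NC library and with shYTHDC2 means of 0.0232 to 0.243 FPKM. Of these, PGR-AS1 and ENSG00000276075 passed without shYTHDC2 replicate 2 (limma adjusted p = 0.000975 and 0.00757) and STXBP5-AS1 without replicate 1 (0.0153).

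MIR100HG was the only member whose symbol marks a microRNA host gene, and DNM3OS, antisense to the dynamin gene DNM3, contains microRNA genes too. The mature microRNAs that RefSeq (GRCh38.p14) places on the host strand at these genes and that are well-known arms of miR-100, let-7a, miR-125b, miR-199a and miR-214 are printed with the seed, bases 2 to 8, in capitals, since the host is what was measured and the microRNAs were not. The first 3 lie in MIR100HG and the others in DNM3OS.
hsa-miR-100-5p: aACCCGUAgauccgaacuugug
hsa-let-7a-5p: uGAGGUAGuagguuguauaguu
hsa-miR-125b-5p: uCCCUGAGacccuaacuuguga
hsa-miR-199a-5p: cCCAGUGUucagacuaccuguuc
hsa-miR-199a-3p: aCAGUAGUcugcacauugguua
hsa-miR-214-3p: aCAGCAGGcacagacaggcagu

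None of these 6 shares its seed with another. MIR100HG, at chr11:122028327-122556721 on the minus strand, was at 0.0981, 0.0717 and 0.146 FPKM in NC and at 0.211, 0.250 and 0.228 FPKM in shYTHDC2. The groups did not overlap, and the mean rose 2.18-fold (log2 change 0.15, SE 0.05, limma adjusted p = 0.0263). That call did not hold with the replicate number as a block (limma adjusted p = 0.0789), nor without NC replicate 1 (0.09999) or NC replicate 2 (0.110). DNM3OS, at chr1:172138397-172144840 on the minus strand and chosen after its values were seen, had no signal in NC and was at 0.0771, 0.0718 and 0.0936 FPKM in shYTHDC2. Its shYTHDC2 values were low but even, and it rose by 0.11 on the log2 scale (SE 0.03, limma adjusted p = 0.0119; 0.0594 without NC replicate 1 and 0.0541 without NC replicate 2).

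Of the 40 lncRNA genes listed at 0 in all NC libraries, 24 had signal in all shYTHDC2 libraries, 13 in 2 and 3 in 1. In limma 21 of the 40 passed, against 85.1% of all listed genes, and no fold is given against a group at 0. Of all listed genes 318 have NC signal, so that share is not one for like genes. The most even was ENSG00000287382, at 0.435, 0.363 and 0.394 FPKM in shYTHDC2 (log2 change 0.48, SE 0.05, limma adjusted p = 9.94e-05). The most abundant was ENSG00000273165, at 0.161, 1.03 and 0.307 FPKM (log2 change 0.54, SE 0.19, limma adjusted p = 0.0283), where replicate 2 made up the larger part. That call was lost without any one NC library (0.0728 to 0.0788) and without shYTHDC2 replicate 3 (0.0604). The NC libraries left out were all at 0, so their loss lowered the number of libraries and not the NC level. ENSG00000267073 was at 0.350, 0.608 and 0.131 FPKM (log2 change 0.43, SE 0.12, limma adjusted p = 0.0113). The last 2 of the 5 most abundant are sense intronic RNAs, ENSG00000288745 in RNF111, a SUMO-targeted ubiquitin ligase gene, and ENSG00000273451 in ZMYND8. ENSG00000288745 was at 0.0264, 0.622 and 0.292 FPKM and ENSG00000273451 at 0, 0.504 and 0.389 FPKM, with limma adjusted p = 0.0470 and 0.0450. Both were low or at 0 in replicate 1, and neither call held without shYTHDC2 replicate 2 (0.0822 and 0.143) or replicate 3 (0.135 and 0.168), nor without any one NC library (0.104 to 0.113 and 0.101 to 0.109) or without trend and robust variance (0.0687 and 0.0666).

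The 3 genes seen in a single library had no NC signal to compare with. ENSG00000289750 was at 0.814 FPKM in shYTHDC2 replicate 2, ENSG00000235609 at 0.291 FPKM in replicate 3 and ENSG00000265399 at 0.562 FPKM in replicate 1, each listed at 0 in the other 5 libraries. Their limma adjusted p was 0.262, 0.246 and 0.257. In the authors' deposited table their q-values are 2.38e-07, 8.09e-07 and 0.0366, so the authors' test and limma on the deposited FPKM gave different calls for these genes. Of the 21 lncRNA genes that did not pass in limma, 19 were at 0 in all NC libraries, and the other two were ENSG00000293183 and ENSG00000240240.

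Of the 45 lncRNA genes with NC signal, all had a higher mean in shYTHDC2 by selection, and 43 passed in limma, against 85.1% of all listed genes. That share also counts 84 genes at 0 in all NC libraries, so the 2 sets are not alike. Their mean changed 2.00- to 95.7-fold, with a median of 3.78-fold; 18 were under 3-fold, 12 between 3- and 10-fold and 15 over 10-fold. The highest fold, that of ENSG00000240240, rests on an NC value of 0.00230 FPKM in replicate 1 alone, and its limma adjusted p was 0.0619 (0.0232 without shYTHDC2 replicate 3). Against the same 85.1%, and with no test of the shares, 9 of 11 long intergenic RNAs passed in limma (81.8%). So did 20 of 32 RNAs with neither a symbol nor a named partner (62.5%) and 7 of 8 RNAs with other symbols (87.5%). Among the last, ERVE-1, a transcript of an endogenous retrovirus, rose 3.90-fold to 0.231 ± 0.114 FPKM (limma adjusted p = 0.0318), and DGCR5, of the DiGeorge syndrome critical region, rose 2.24-fold to 0.343 ± 0.103 FPKM (limma adjusted p = 0.0236). RDUR, which regulates the RIG-I antiviral response, was at 0 in NC and at 0.116, 0.123 and 0.0296 FPKM in shYTHDC2 (limma adjusted p = 0.0296). These 3 were chosen after their values were seen, and none of their calls held without any one NC library, with limma adjusted p of 0.0518 to 0.107 for ERVE-1, 0.0532 to 0.0897 for DGCR5 and 0.0846 to 0.0917 for RDUR. Leaving out shYTHDC2 replicate 1 also ended the calls of ERVE-1 (0.0548) and RDUR (0.0569), and the fold of ERVE-1 was 6.23 without NC replicate 2.

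GENCODE release 29 holds a position for 61 of the 85 genes. Of these, 24 overlap a protein-coding gene on the opposite strand, 6 on the same strand and 3 on both, 4 lie within 5 kb without overlap, and 24 have none within 5 kb. The 24 on the opposite strand had a median shYTHDC2 level of 0.445 FPKM and the 24 with none near of 0.182 FPKM, which were not tested against each other. Within 500 kb of 19 of the genes lies another gene of the table, 22 pairs in all, of which 5 join 2 lncRNA genes. LINC00880, for example, lies 313785 bases from PTX3, the gene of a secreted pentraxin of innate immunity, and ENSG00000260160 lies 49388 bases from the zinc finger gene ZNF616. ENSG00000260160 also overlaps a protein-coding gene on its own strand, with ZNF432 and ZNF841 within 5 kb. Whether its reads come from there was not tested. Such pairs were not counted for other sets of genes, so their number is a description only.

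The longest transcript of these 61 genes had a median of 1809 nucleotides and 2 exons, and 13 (21.3%) had a single exon. Over all lncRNA genes of that release the median was 704 nucleotides and 2 exons, with 22.6% of a single exon. GGACT was found in 46 of the 61 (75.4%), at a median of 0.921 per kb, against 58.0% and 0.690 per kb over all lncRNA genes. In the listed protein-coding genes, with a median of 4201 nucleotides, it was found in 92.9%, at 0.968 per kb. Longer transcripts hold more matches, the differences were not tested, and no m6A was measured.

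Beside the protein-coding genes of the table, the lncRNA genes had lower and more uneven levels by their medians. Their median shYTHDC2 level was 0.288 against 1.49 FPKM, and their median coefficient of variation in shYTHDC2 49.5% against 14.2%. Their median log2 change was 0.29 against 0.64 (0.53 over all listed genes), on a scale that understates low genes. The order was the other way for the fold. Among genes with NC signal the median fold was 3.78 against 2.49 (2.57 over all listed genes). Listed at 0 in all NC libraries were 47.1% of lncRNA genes and 9.19% of protein-coding genes. Within the same range of shYTHDC2 level, 0.1 to 1 FPKM, the median log2 change was 0.30 for both kinds. The scale leaves little room for a difference at such levels. Among genes of that range with NC signal, the median fold was 6.37 for lncRNA and 2.75 for protein-coding genes. In that range 25 of 54 lncRNA genes (46.3%) and 7 of 94 protein-coding genes (7.45%) were at 0 in all NC libraries. Since the range is set by the shYTHDC2 level of genes all chosen as higher there, these values are given without a test.

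**Figure D4:**
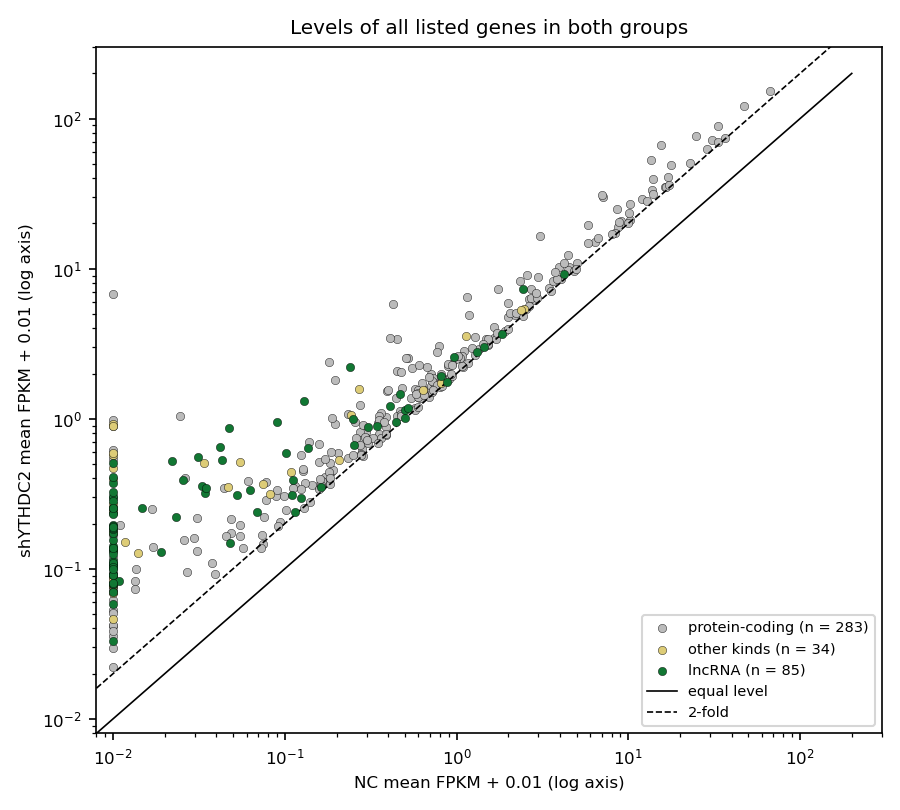
Mean level in shYTHDC2 against mean level in NC for all 402 genes, both in FPKM with 0.01 added and on log axes; the solid line marks equal levels and the dashed line a 2-fold difference. All points lie at or above the dashed line by selection, apart from the effect of the added 0.01, and the lncRNA genes (n = 85) lie in the low part, 40 of them in the column at the left edge where NC is 0.

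The members just inside the authors' limits show where the table ends. By the authors' deposited table the lowest folds of the 85 were 2.00 for ENSG00000288062, 2.01 for SFTA1P and 2.05 for LINC02742, and the highest q-values 0.0494 for LINC02569, 0.0494 for RORA-AS1 and 0.0488 for ENSG00000293013. LINC02742 was at 0.459, 0.527 and 0.492 FPKM in NC and at 1.15, 0.678 and 1.20 FPKM in shYTHDC2, with the groups apart (limma adjusted p = 0.0131). The 3 genes of the highest q-values were at 0 in all NC libraries, with shYTHDC2 means of 0.183, 0.0705 and 0.0604 FPKM and limma adjusted p of 0.0179, 0.0387 and 0.133. The calls of LINC02569 (0.0537 to 0.0587) and RORA-AS1 (0.101 to 0.114) were lost without any one NC library, as they were in limma on lncRNA genes alone for LINC02569 (0.0536) and without trend and robust variance for RORA-AS1 (0.0991). Without shYTHDC2 replicate 3, ENSG00000293013 passed (0.0320). Genes just outside the limits were not analysed here.

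Of a list of 50 lncRNAs known from keratinocytes and carcinomas, 2 were in the table, MIR100HG and VIM-AS1. Both were higher by selection, like 100% of the listed genes, and the call of MIR100HG did not hold in all alternatives. Whether 2 of 50 is a high or a low number was not tested. Of 22 genes of the m6A machinery and 13 of YTHDC2 partners and RNA decay, 0 were in the table. Markers of fibroblasts (0 of 7) and leukocytes (0 of 5) were not in the table either, while the endothelial markers CDH5 and ESAM (2 of 5) were. CDH5, an endothelial cadherin, was at a mean of 1.52 FPKM in NC and 3.12 FPKM in shYTHDC2 and ESAM, an endothelial adhesion molecule, at 0.286 and 0.736 FPKM; their part in the results was not tested. Between libraries of a group the correlation of log2 values across the 85 lncRNA genes was 0.943 to 0.959 in NC and 0.876 to 0.917 in shYTHDC2, a description across genes, and in no pair of libraries of a group did a gene have identical values above 0.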

How the data were processed

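Poly(A) RNA of CAL-27 cells was sequenced from strand-marked libraries, per the labels' protocols, in 6 libraries grouped and numbered by the sample titles. Named in the submitters' processing notes are GRCh38, HISAT2, StringTie, fastp and edgeR, with no versions or roles; the sources used here give neither the gene annotation nor the strand setting. Per the file headers, the authors deposited an FPKM value per gene and library. Per the file headers, the authors also deposited a fold, its log2, and a p-value and q-value, with the test not named. The fold equals the ratio of mean FPKM where NC has signal. For genes at 0 in NC it is finite (232 for C21orf62-AS1, with a shYTHDC2 mean of 0.0232 FPKM), so a small value stands in for 0 there. FPKM divides by the library total, so abundant genes shift all others. Read steps could not be recovered, so depth is unknown and no counting interval is given.

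The members and lists were chosen with earlier results of these data known. All 402 genes were fitted without a filter as log2(FPKM + 1) in limma 3.58.1 (R 4.3.3) with a robust variance trend. The p-values were adjusted over all genes by Benjamini-Hochberg (threshold 0.05). The step was tested on simulated data in which no group was set to 0. Calls of genes at 0 in NC were therefore not checked by it. With 3 libraries a group, the smallest two-sided p of an exact permutation test is 0.1, so none is given. All columns of library values were mapped to samples. Named genes are the 10 of highest mean, the 10 of largest change, the 5 highest among those at 0 in NC, members of the lists, those tied to a listed protein-coding gene, and the 3 of lowest authors' fold and of highest authors' q; other genes named were chosen after their values were seen. Named antisense and intronic partners come from symbols and descriptions. Positions come from GENCODE 29 (GRCh38) by Ensembl gene ID. Alternatives covered pseudocounts, filters, variance models, the replicate block, scaling within groups, thresholds, single libraries left out, the definition of a lncRNA gene and the authors' calls. Folds with single libraries left out, and such calls for genes outside the naming rule, were added after seeing the data.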

Additional observations from a re-analysis of the deposited data

How the results depend on the processing

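No fitted change turned in sign, and 0 lncRNA genes were called lower by limma, under any alternative run. The 64 called lncRNA genes became 34 at an adjusted p of 0.01, 14 of 15 among genes whose mean reached 1 FPKM in either group and 8 of 9 among those whose mean over all libraries did; with 1 library left out the count was 41 to 68. The 68 genes with separated groups became 14 and 8 under the same 2 filters, and 68 to 74 with 1 library left out. Most genes kept by the filter on either group pass it only through shYTHDC2, the group chosen as higher. The 40 genes at 0 in NC became 11 with a mean of at least 0.1 FPKM and 0 under either filter of 1 FPKM, which leave fewer genes, and 40 to 44 with 1 library left out. The median log2 change of 0.29 depends on the scale. It was 1.14 with a pseudocount of 0.1, 2.87 with 0.01 and 0.48 in genes of at least 0.1 FPKM. It was 0.73 and 0.74 under the filters of 1 FPKM in a group and over all, and 0.29 to 0.30 with 1 library left out. In the authors' deposited table it was 5.42, where the folds of genes at 0 in NC have a small value in place of 0. With the replicate block 62 genes were called, and of the 24 named genes MIR100HG and RORA-AS1 (adjusted p = 0.0871) lost the call. Same-numbered libraries correlated by only 0.0388, 0.0750 and 0.0503 in their deviations from the group means, so the numbers were not taken to pair them, though every such pair had the highest correlation of its libraries. Of the 24 named genes, 13 kept the same call in all alternatives. Values under 0.1 FPKM rest on few fragments. Scaling the groups to each other was not run, because the table holds only genes chosen as higher.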
